A study of Homo sapiens with 6 samples.

Results

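The replication-dependent histone genes were taken as the entries of the count table whose symbol begins with HIST1H, HIST2H, HIST3H or HIST4H, which gave 73 members of the 23355 genes listed. HFL-1, an established fibroblast line from human fetal lung, received either a control siRNA without a target (siNTC) or 1 of 2 siRNAs against TAZ (siTAZ #1 and siTAZ #2), and RNA was collected after 48 h. TAZ, encoded by WWTR1, is a transcriptional coactivator of the Hippo pathway. Each group had 2 libraries, 6 in all. All groups were given the same lipid transfection reagent, and no further agent or genetic change is named for the line. The study's methods state that the TAZ siRNAs were transfected in duplicate, without saying whether the duplicates came from separate cultures or days, so the tests measure the spread between libraries, which may be technical.

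The core histones H2A, H2B, H3 and H4 form the protein spool of the nucleosome, and the linker histone H1 binds where DNA enters and leaves it. Genes of the replication-dependent kind lie in clusters, are transcribed mainly in S phase, and supply the histones that package newly copied DNA. Their mRNAs usually end in a conserved stem-loop in place of a poly(A) tail, although some members can also be read through to a poly(A) site. Whether the libraries were made from poly(A)-selected RNA is not given in the sources used here, so the level of a member reflects how its mRNA was captured as well as how much was present, and fewer cells in S phase and less histone mRNA per cell cannot be told apart.

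The stem-loop is shown first because it marks the usual mRNA end of the genes described below. In GRCh37 a stem-loop was found 22 to 67 bases after the stop codon in all 67 members with a coding annotation, with a median distance of 35 bases. The sites of 6 members are written on the coding strand, 5′ to 3′, with the stem and loop in capitals.
HIST1H2BK (chr6:27114140-27114165, minus strand): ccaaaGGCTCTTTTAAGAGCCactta
HIST1H1C (chr6:26055967-26055992, minus strand): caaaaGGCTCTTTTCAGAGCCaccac
HIST1H2AC (chr6:26124892-26124917, plus strand): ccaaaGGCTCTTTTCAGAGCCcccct
HIST2H2BE (chr1:149857733-149857758, minus strand): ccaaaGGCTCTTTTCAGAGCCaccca
HIST1H2AG (chr6:27101289-27101314, plus strand): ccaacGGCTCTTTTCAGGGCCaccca
HIST1H4H (chr6:26285354-26285379, minus strand): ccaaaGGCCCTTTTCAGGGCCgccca
The form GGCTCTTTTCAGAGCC occurred in 39 members. All 14 H4 genes searched had an arm that starts with GGCCC, and 0 members of the other classes did. HIST1H2AG and HIST1H2AK each have a G-T pair in the stem. HIST1H2AG was called lower with siTAZ #2. HIST1H2AK was called with neither siTAZ #1 nor siTAZ #2 (edgeR, FDR 0.064 and 0.17). The reference also annotates a transcript that runs over 100 bases past the stem-loop for 18 members, among them HIST1H2AC, HIST1H2BD, HIST2H2BE and HIST2H2BF.

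Of the 73 members, 32 had enough counts to be tested, 31 had some counts but too few, and 10 were at 0 in every library. The tested members were 1 of 6 H1 genes, 7 of 18 H2A genes, 15 of 20 H2B genes, 5 of 14 H3 genes and 4 of 15 H4 genes. Their total counts over the 6 libraries ran from 39 to 3168, and 7 of them had a mean of at least 50 counts per library. The members left untested had between 1 and 64 counts in total. Among the members at 0, HIST2H2AA3, HIST2H2AA4, HIST2H3A, HIST2H3C, HIST2H4A and HIST2H4B each have a copy with an identical coding sequence, so a 0 there does not show that the gene was silent. The others at 0 were HIST1H1T, HIST1H2AD, HIST1H2BA and HIST1H4G. In the annotation used here, another gene on the same strand overlaps HIST1H2AD over 435 bases, so its 0 also does not show that it was silent. The tested members included HIST2H2BA and HIST2H2BC, which GRCh37 annotation lists as pseudogenes, and HIST1H4J and HIST1H4K, whose coding sequences are identical and whose separate counts are therefore uncertain.

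Whole-series values were as follows. Libraries summed to between 15648055 and 32078188 counts. WWTR1 was at 132 and 131 CPM (counts scaled to a library size of 1000000 after TMM normalization, here and throughout) in the siNTC libraries, at 26.4 and 28.4 CPM after siTAZ #1 and at 46.1 and 43.1 CPM after siTAZ #2. The log2 fold change of WWTR1 was -2.26 ± 0.10 (SE) with siTAZ #1 and -1.56 ± 0.10 with siTAZ #2 (edgeR, FDR 0.00062 and 0.00068). The library siTAZ #1 replicate 2 had nearly no counts from RANGAP1 on chromosome 22 through chromosomes X and Y, a stretch that holds 0 of the histone members. The 9 fibroblast markers were detected, with summed levels of 34878 and 34966 CPM in siNTC, 23174 to 24049 CPM with siTAZ #1 and 27180 to 28939 CPM with siTAZ #2. The 7 epithelial markers summed to 31.9 to 53.5 CPM, the 4 endothelial markers to 0.89 to 3.50 CPM and the 4 leukocyte markers to 37.9 to 75.7 CPM over all libraries, and none of these genes was at 0 in every library. Nearly all of the leukocyte sum was CD68, a lysosomal protein best known from macrophages, at 73.8 and 75.1 CPM in siNTC, 75.4 and 68.7 CPM with siTAZ #1, and 37.8 and 48.3 CPM with siTAZ #2. PTPRC, CD3E and LYZ, the other leukocyte markers, were at 0 to 0.13 CPM in every library. Nearly all of the epithelial sum was KRT18, at 34.6 and 36.2 CPM in siNTC, 29.7 and 36.7 CPM with siTAZ #1, and 44.6 and 50.4 CPM with siTAZ #2. EPCAM was at 0.32 to 2.38 CPM and KRT19 at 0.37 to 1.42 CPM. CDH1, KRT5, SFTPC and NKX2-1 were at 0 to 0.51 CPM.

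The summed level of the histone genes was lower with either siRNA. The 73 members together reached 203 and 176 CPM in the siNTC libraries, 101 and 96.7 CPM with siTAZ #1, and 104 and 97.3 CPM with siTAZ #2. The 4 siTAZ libraries therefore lay below both siNTC libraries, at 52.3% of the siNTC mean for siTAZ #1 and 53.1% for siTAZ #2. Which members are summed sets how near the siRNAs lie, since without HIST1H2BK the sums were at 57.0% and 66.5% of siNTC. The sum is a description of these libraries and carries no test.

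**Figure D1:**
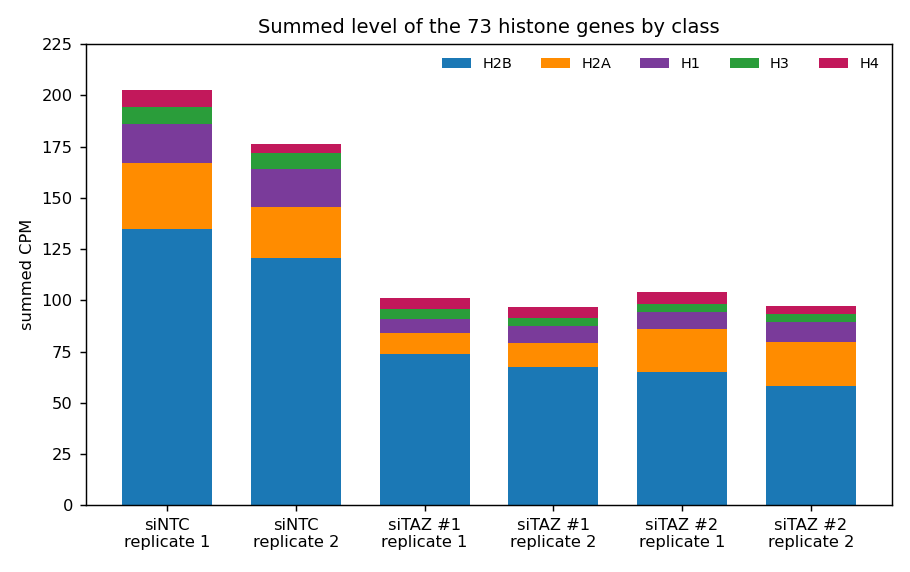
Summed level of the 73 histone genes in CPM in each of the 6 libraries, stacked by histone class. The siNTC bars reach 203 and 176 CPM and the 4 siTAZ bars lie between 96.7 and 104 CPM, with H2B as the largest share of every bar.

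By class, the H2B genes held 60.0% to 72.7% of the histone counts of a library. Their sum was 128 ± 10.2 CPM (SD, n = 2) in siNTC, against 70.5 ± 4.4 CPM for siTAZ #1 and 61.7 ± 4.6 CPM for siTAZ #2. The H2A sum differed most between the siRNAs, with 28.7 ± 4.9 CPM in siNTC, against 11.0 ± 0.74 CPM for siTAZ #1 and 21.2 ± 0.25 CPM for siTAZ #2. That gap lay in HIST1H2AC, since the other 17 H2A genes summed to 9.74 ± 0.86 CPM in siNTC, 7.60 ± 1.3 CPM after siTAZ #1 and 6.44 ± 1.1 CPM after siTAZ #2, with overlapping siTAZ libraries. The 6 H1 genes summed to 18.7 ± 0.24, 7.57 ± 1.1 and 8.86 ± 0.96 CPM in the same order, and this sum was mostly HIST1H1C. The H3 sum was 8.13 ± 0.70, 4.38 ± 0.56 and 3.98 ± 0.25 CPM. The H4 sum differed least from siNTC, at 6.42 ± 2.6, 5.49 ± 0.17 and 4.86 ± 0.99 CPM, and its libraries overlapped between all 3 groups.

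The clusters also differed in their sums. Cluster 1, on chromosome 6, holds 56 members, which summed to 142 ± 15.4 CPM for siNTC, 63.9 ± 0.053 CPM for siTAZ #1 and 58.6 ± 2.9 CPM for siTAZ #2. Cluster 2, on chromosome 1, holds 13 members and was at 45.8 ± 2.1, 33.3 ± 3.3 and 39.5 ± 2.6 CPM. The 3 members of cluster 3 summed to only 1.04 ± 0.32, 1.59 ± 0.055 and 2.09 ± 0.71 CPM. HIST4H4, the 1 member of cluster 4, had too few counts to be tested.

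For siTAZ #1 against siNTC, the question was which histone genes changed when TAZ was lowered by the first siRNA. The test called 6 of 32 members lower (18.8%), where 9.78% of all 14053 genes tested were called lower. It called 0 members higher, where 10.8% of all genes were, and no member was higher at an unadjusted p under 0.05 or by DESeq2. The median log2 fold change of the tested members was -0.73, against 0.016 for all genes, and 28 of the 32 were below 0. The members called were HIST1H1C, HIST1H2AC, HIST1H2AM, HIST1H2BD, HIST1H2BK and HIST2H2BE. The count fell to 2, HIST1H2AC and HIST1H2BK, without siNTC replicate 1 and likewise without siNTC replicate 2.

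For siTAZ #2 against siNTC, the test called 8 of 32 members lower (25%), where 14.4% of all genes were. It called 0 members higher, where 14.1% of all genes were, and DESeq2 also called none. HIST3H2A was higher at an unadjusted p under 0.05, and the only such member. The median log2 fold change of the members was -1.04, against 0.015 for all genes, and 26 of 32 were below 0. The members called were HIST1H1C, HIST1H2AG, HIST1H2BD, HIST1H2BE, HIST1H2BK, HIST1H3G, HIST1H3H and HIST2H2BF. The count was 3 without siNTC replicate 1 or without siTAZ #2 replicate 1, and 2 without siNTC replicate 2 or without siTAZ #2 replicate 2. With the replicate number as a block it was 5, and in the fit of the siNTC and siTAZ #2 libraries alone it was 10 of 28. Both comparisons share the siNTC libraries.

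**Figure D2:**
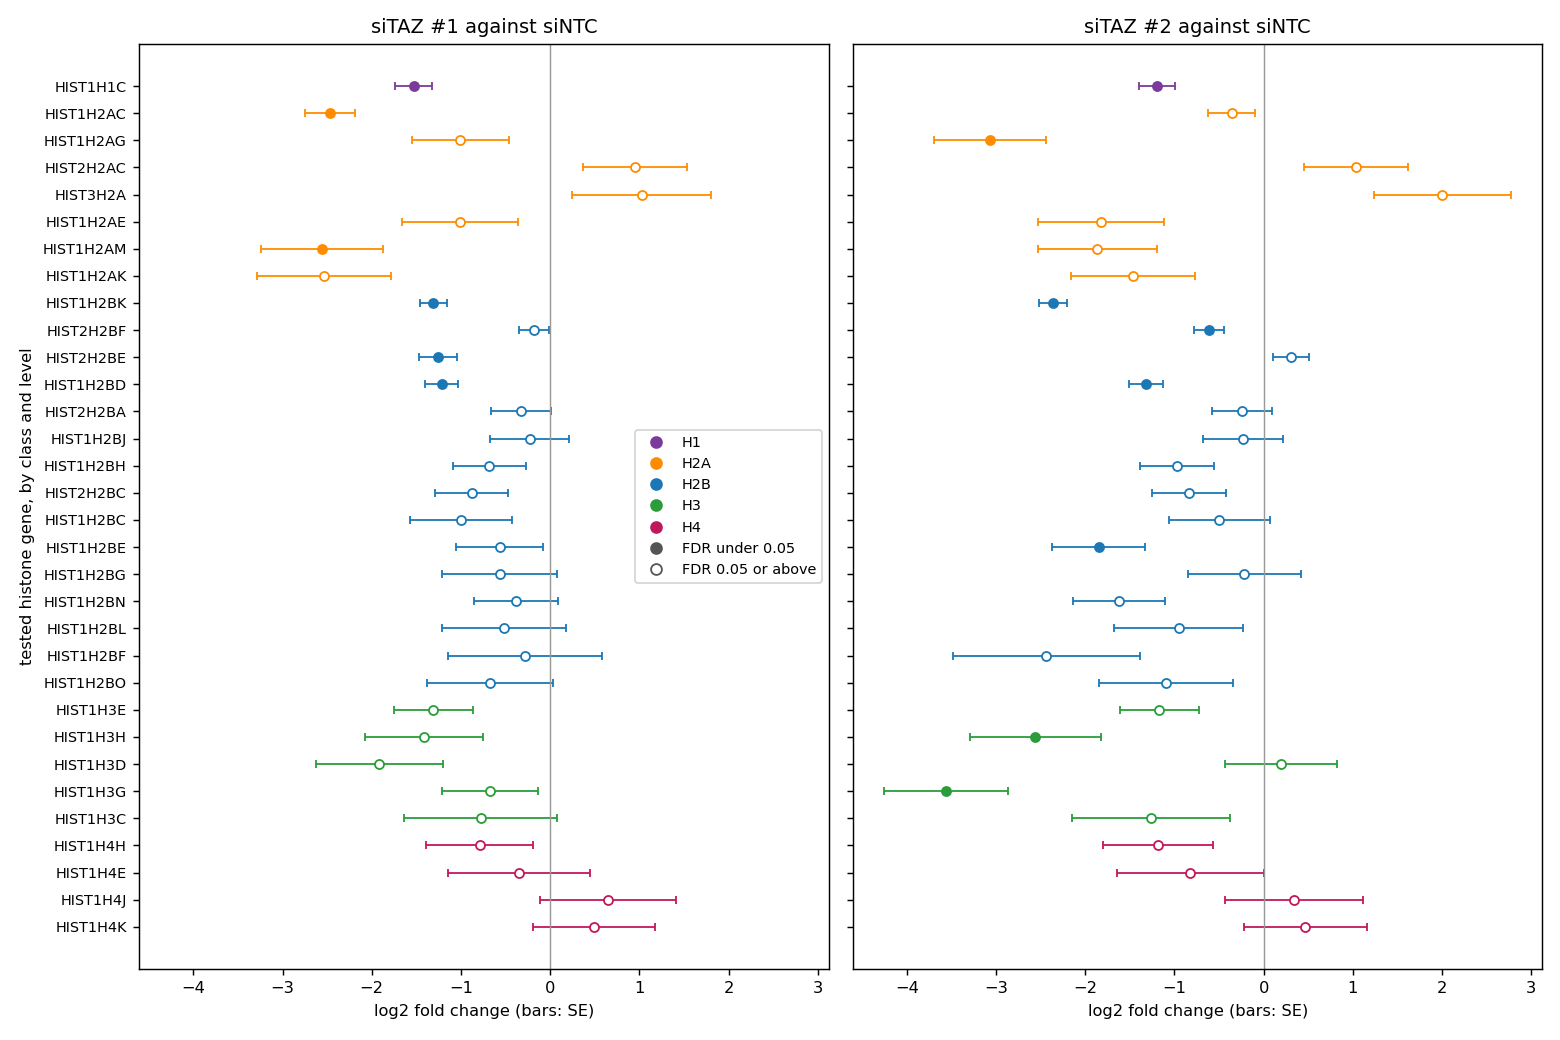
Log2 fold change (horizontal axis) with its SE for each of the 32 tested histone genes, for siTAZ #1 on the left and siTAZ #2 on the right, ordered by class and level. Filled points passed FDR 0.05, and all filled points lie below 0 in both panels.

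Taking each library by its own value, 13 of 32 tested members had all 4 siTAZ libraries below both siNTC libraries, where 17.5% of all genes tested did. None of the 32 had all 4 above both siNTC libraries, where 18.6% of all genes did. The 13 members were spread over H1 (HIST1H1C), H2A (HIST1H2AG, HIST1H2AK, HIST1H2AM), H2B (HIST1H2BD, HIST1H2BE, HIST1H2BH, HIST1H2BK, HIST1H2BO, HIST2H2BC) and H3 (HIST1H3E, HIST1H3G, HIST1H3H). No H4 gene was among them.

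HIST1H2BK, an H2B gene of cluster 1, had the most counts of any member. It was at 58.5 and 49.8 CPM in siNTC, 21.7 and 21.9 CPM with siTAZ #1, and 11.5 and 9.66 CPM with siTAZ #2. The 3 groups did not overlap, and the siTAZ #2 libraries were the lowest. The log2 fold change was -1.31 ± 0.15 (SE, FDR 0.0041) with siTAZ #1 and -2.36 ± 0.16 (FDR 0.00069) with siTAZ #2 in edgeR's test. The direct comparison put siTAZ #1 above siTAZ #2 by 1.05 ± 0.15 (FDR 0.0055). These calls held in every alternative fit run, with FDR of at most 0.048.

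HIST1H1C encodes the linker histone H1.2 and was the only H1 gene with enough counts. Its level was 17.3 and 17.8 CPM in siNTC, 5.23 and 6.87 CPM with siTAZ #1, and 7.76 and 7.55 CPM with siTAZ #2. All 4 siTAZ libraries lay below siNTC, with log2 fold changes of -1.53 ± 0.21 (edgeR, FDR 0.0064) and -1.20 ± 0.20 (FDR 0.0094). The siRNAs were not told apart, with a difference of -0.33 ± 0.20 (FDR 0.28). The siTAZ #1 call did not hold without siNTC replicate 1 or 2, at log2 fold changes of -1.56 and -1.52. The siTAZ #2 call did not hold without any 1 of the 4 libraries compared, at -1.24 to -1.19. Both calls held in edgeR when the stretch nearly without counts in siTAZ #1 replicate 2 was left out (FDR 0.00018 and 0.00091). Fits of only the 4 libraries compared also kept both calls (edgeR, FDR 0.021 and 0.00013).

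HIST1H2BD, another H2B gene of cluster 1, behaved much like HIST1H1C in its values. It was at 14.5 and 14.8 CPM in siNTC, 5.81 and 6.75 CPM with siTAZ #1, and 5.94 and 5.80 CPM with siTAZ #2. The log2 fold change was -1.22 ± 0.19 (edgeR, FDR 0.0092) with siTAZ #1 and -1.32 ± 0.19 (FDR 0.0052) with siTAZ #2. Without siNTC replicate 1 or 2, the FDR with siTAZ #1 was 0.067 and 0.070.

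HIST1H2AC, the H2A gene with the most counts, changed with siTAZ #1 and not detectably with siTAZ #2. It was at 23.0 and 14.9 CPM in siNTC, 3.81 and 3.07 CPM with siTAZ #1, and 13.8 and 15.7 CPM with siTAZ #2. The siTAZ #1 libraries stood below the other 4, while siTAZ #2 overlapped siNTC. The log2 fold change was -2.47 ± 0.28 (edgeR, FDR 0.0039) with siTAZ #1 and -0.36 ± 0.26 (FDR 0.35) with siTAZ #2. The siRNAs themselves differed by -2.11 ± 0.28 (FDR 0.0040). Both calls held in every alternative fit run, with FDR of at most 0.033.

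HIST2H2BE, an H2B gene of cluster 2, showed the same split between the siRNAs. It was at 14.3 and 13.1 CPM in siNTC, 6.58 and 4.91 CPM with siTAZ #1, and 17.2 and 16.5 CPM with siTAZ #2. With siTAZ #1 the log2 fold change was -1.26 ± 0.21 (edgeR, FDR 0.012), and without siNTC replicate 1 or 2 its FDR was 0.087 and 0.071. With siTAZ #2 it was 0.30 ± 0.20 (FDR 0.32), and the siRNAs differed from each other by -1.56 ± 0.21 (FDR 0.0043). In the coding sequence, 19.7% of the 100-base stretches of HIST2H2BE, and the same share for HIST2H2BF, also occur in another member. Reads of up to 100 bases that lie within such shared stretches could not be placed uniquely by sequence. The read length is not given in the sources used here. HIST2H2BE and HIST2H2BF are each other's nearest member in sequence. The annotated HIST2H2BE transcript has 2224 bases, and the share over whole transcripts was not measured.

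HIST2H2BF, also an H2B gene of cluster 2, had the second-highest count and moved least among the members called. Its level was 25.5 and 21.9 CPM in siNTC, 22.1 and 19.6 CPM with siTAZ #1, and 16.8 and 14.2 CPM with siTAZ #2. The log2 fold change was -0.19 ± 0.17 (edgeR, FDR 0.48) with siTAZ #1 and -0.61 ± 0.17 (FDR 0.043) with siTAZ #2. The siTAZ #2 call was lost without any 1 of the 4 libraries compared (FDR 0.090 to 0.20) and with the replicate block (FDR 0.054).

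**Figure D3:**
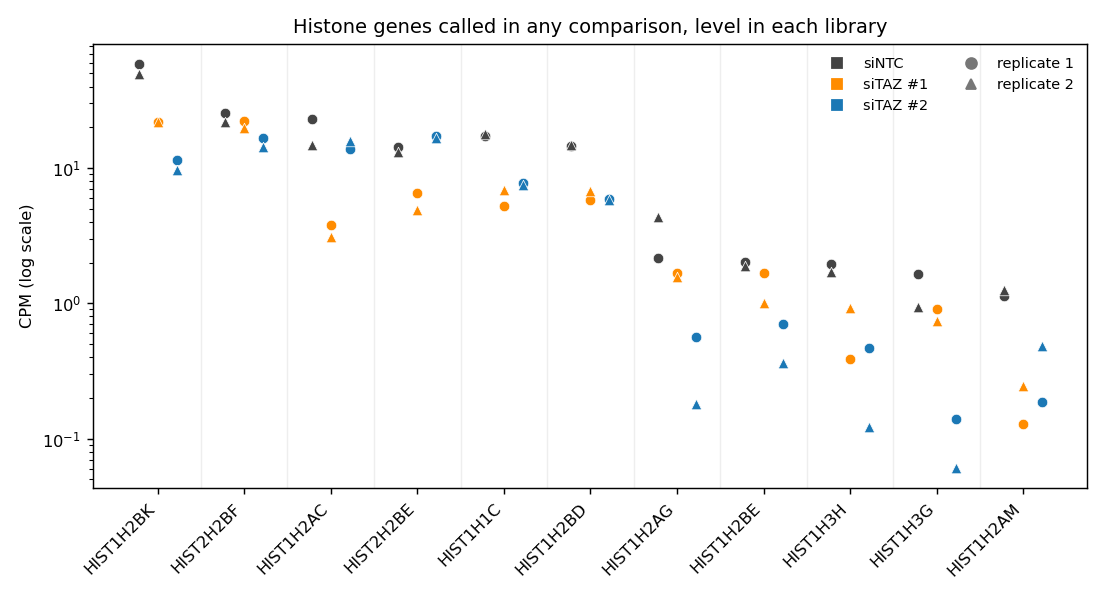
Level in CPM (logarithmic axis) of the 11 histone genes called in any comparison, in each of the 6 libraries, with circles for replicate 1 and triangles for replicate 2. HIST1H2BK steps down from siNTC to siTAZ #1 to siTAZ #2, while HIST1H2AC and HIST2H2BE are low with siTAZ #1 alone.

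The other members called rested on few counts. The counts below are not scaled for library size, and siTAZ #1 replicate 2 was the largest library. HIST1H2AG, an H2A gene, had 34 and 69 counts in siNTC, 26 and 51 with siTAZ #1, and 12 and 3 with siTAZ #2. Its level with siTAZ #1 was 49.1% of siNTC (95% counting interval 36.1% to 66.7%, which covers counting error only). The log2 fold change with siTAZ #1 was -1.01 ± 0.55, not called (edgeR, FDR 0.25). Its level with siTAZ #2 was 12.1% of siNTC (95% counting interval 6.55% to 21%), with a log2 fold change of -3.06 ± 0.63 (edgeR, FDR 0.017). Without siNTC replicate 2 or siTAZ #2 replicate 2, that FDR was 0.10 and 0.074.

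HIST1H3G, an H3 gene, had 26 and 15 counts in siNTC, 14 and 24 with siTAZ #1, and 3 and 1 with siTAZ #2. Its level with siTAZ #1 was 60.9% of siNTC (95% counting interval 38.1% to 97.1%). The log2 fold change with siTAZ #1 was -0.67 ± 0.54, not called (edgeR, FDR 0.42). The level with siTAZ #2 was 8.13% of siNTC (95% counting interval 2.11% to 22.4%), with a log2 fold change of -3.56 ± 0.69 (edgeR, FDR 0.015). The siRNAs differed by 2.89 ± 0.70 (FDR 0.029). The call against siNTC was lost without any 1 of the 4 libraries compared (FDR 0.053 to 0.095), and the call between the siRNAs was lost without each library other than siTAZ #1 replicate 2 (FDR 0.058 to 0.14) and in the fit of the 4 siTAZ libraries alone (FDR 0.062).

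HIST1H3H, the other H3 gene called, had 31 and 27 counts in siNTC, 6 and 30 with siTAZ #1, and 10 and 2 with siTAZ #2. Its level with siTAZ #1 was 40.8% of siNTC (95% counting interval 26.1% to 62.9%). The log2 fold change with siTAZ #1 was -1.42 ± 0.66, not called (edgeR, FDR 0.19). With siTAZ #2 it stood at 17.2% of siNTC (95% counting interval 8.43% to 32.5%), with a log2 fold change of -2.56 ± 0.73 (edgeR, FDR 0.048). That call was lost without any 1 of the 4 libraries compared (FDR 0.070 to 0.18) and with the replicate block (FDR 0.093).

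HIST1H2BE, an H2B gene, had 32 and 30 counts in siNTC, 26 and 33 with siTAZ #1, and 15 and 6 with siTAZ #2. Scaled, it was at 2.03 and 1.89 CPM in siNTC, 1.68 and 1.01 CPM with siTAZ #1, and 0.70 and 0.36 CPM with siTAZ #2. The log2 fold change with siTAZ #1 was -0.57 ± 0.48, not called (edgeR, FDR 0.45). Its log2 fold change with siTAZ #2 was -1.85 ± 0.52 (edgeR, FDR 0.046), and this call too was lost without any 1 of the 4 libraries compared (FDR 0.082 to 0.17) and with the replicate block (FDR 0.058).

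HIST1H2AM, an H2A gene whose annotation overlaps a neighbouring H3 gene on the same strand, had 18 and 20 counts in siNTC, 2 and 8 with siTAZ #1, and 4 and 8 with siTAZ #2. Its level with siTAZ #2 was 26.3% of siNTC (95% counting interval 12.5% to 51.4%). The log2 fold change with siTAZ #2 was -1.86 ± 0.66, not called (edgeR, FDR 0.086). Its level with siTAZ #1 was 17.3% of siNTC (95% counting interval 7.69% to 35.4%), with a log2 fold change of -2.55 ± 0.68 (edgeR, FDR 0.049). It passed the threshold in only 3 of 13 alternative fits, and its FDR was 0.067 to 0.21 without any 1 library and 0.073 with the replicate block.

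Compared directly, the siRNAs differed for 4 of 32 members, as read above. HIST1H2AC and HIST2H2BE were lower with siTAZ #1 (2 of 32, where 13.4% of all genes tested were), and HIST1H2BK and HIST1H3G were higher with siTAZ #1 (2 of 32, where 15.2% were). These shares were below those of all genes. The median difference over the members was 0.20, against -0.009 for all genes.

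HIST1H1C, HIST1H2AC, HIST1H2BD, HIST1H2BK and HIST2H2BE are the members known for polyadenylated transcripts, and they were also the main carriers of the counts. Together they made 42.6% to 63.0% of the histone counts of a library. Their sum was 128 and 110 CPM in siNTC, 43.2 and 43.5 CPM with siTAZ #1, and 56.2 and 55.3 CPM with siTAZ #2. The other 68 members summed to 74.9 and 66.1 CPM, 58.2 and 53.2 CPM, and 47.7 and 42.0 CPM. Both sums were lower in all 4 siTAZ libraries than in siNTC. At group means, the 5 stood at 36.4% of siNTC with siTAZ #1 and 46.9% with siTAZ #2, and the other 68 at 79.0% and 63.6%.

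All 5 were called lower with siTAZ #1, with a median log2 fold change of -1.31, and 3 of 5 with siTAZ #2, with a median of -1.20. Of the 27 other members tested, 1 was called lower with siTAZ #1 and 5 with siTAZ #2, with medians of -0.67 and -0.98. Those calls were 3.7% and 18.5% of the 27, where 9.78% and 14.4% of all genes were called lower, so the first share was under the background and the second near it. These 5 and HIST2H2BF were the members with the most counts, so that depth and the kind of transcript cannot be told apart in these counts of calls. The list and the annotation do not name the same genes: HIST1H1C and HIST1H2BK, both on the list, have no annotated transcript reaching more than 4 and 5 bases past the stem-loop, while HIST2H2BF, counted among the others, has one that reaches 29195 bases further along the chromosome. Split by annotation instead, the 12 tested members with a transcript running past the stem-loop had medians of -0.90 and -0.89, and the 16 without one had medians of -0.73 and -1.15.

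Many H2A and H2B genes are arranged head to head and share the short stretch between their starts. It is printed for the pairs found in which both partners were tested, so that their values can be set against the sequence they share. Among members with a GRCh37 position, 11 pairs had divergent starts 193 to 288 bases apart, and both partners were tested in 5 of them. HIST1H2BF and HIST1H2BG, both tested, had no position and could not be paired, so these counts may miss pairs. In GRCh38.p14 the HIST1H2BG promoter overlaps that of HIST1H2AE, also tested, on the other strand, and the HIST1H2BF promoter overlaps that of HIST1H2AD. The sequences are on the plus strand, 5′ to 3′. Capitals mark the motif CCAAT, the motif TATAAA or the octamer ATTTGCAT, on either strand, where neighbouring matches may run together.
HIST1H2BC and HIST1H2AC (chr6:26124155-26124399): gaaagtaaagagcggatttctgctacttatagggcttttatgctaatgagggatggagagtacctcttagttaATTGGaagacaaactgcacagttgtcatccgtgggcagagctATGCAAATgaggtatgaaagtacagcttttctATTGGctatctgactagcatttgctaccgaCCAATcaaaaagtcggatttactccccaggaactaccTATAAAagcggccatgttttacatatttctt
HIST1H2AK and HIST1H2BN (chr6:27806154-27806346): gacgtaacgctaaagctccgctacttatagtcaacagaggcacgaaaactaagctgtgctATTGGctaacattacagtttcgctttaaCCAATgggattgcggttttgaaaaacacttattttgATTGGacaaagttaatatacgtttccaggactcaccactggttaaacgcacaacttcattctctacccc
HIST1H2AM and HIST1H2BO (chr6:27860964-27861202): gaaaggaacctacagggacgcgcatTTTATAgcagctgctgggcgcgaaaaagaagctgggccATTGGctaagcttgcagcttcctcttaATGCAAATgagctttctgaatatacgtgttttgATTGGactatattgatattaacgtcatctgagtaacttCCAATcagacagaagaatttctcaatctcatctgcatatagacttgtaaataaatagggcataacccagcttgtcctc
HIST1H2BJ and HIST1H2AG (chr6:27100575-27100821): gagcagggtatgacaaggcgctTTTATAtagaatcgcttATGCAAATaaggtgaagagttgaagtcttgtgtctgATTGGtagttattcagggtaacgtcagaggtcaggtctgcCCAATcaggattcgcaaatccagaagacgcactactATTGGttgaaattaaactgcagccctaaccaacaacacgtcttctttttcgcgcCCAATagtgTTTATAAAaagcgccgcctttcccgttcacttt
HIST2H2BE and HIST2H2AC (chr1:149858233-149858467): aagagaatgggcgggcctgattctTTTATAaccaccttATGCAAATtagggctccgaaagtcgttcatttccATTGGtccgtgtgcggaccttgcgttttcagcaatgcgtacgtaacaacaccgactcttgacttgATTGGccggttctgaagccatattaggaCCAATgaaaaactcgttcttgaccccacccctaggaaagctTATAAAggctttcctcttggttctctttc

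Across these 5 stretches, the values of partners lay apart in some comparisons and nearer in others, and the partner with few counts was estimated loosely. With siTAZ #1, HIST1H2AC was at -2.47 ± 0.28 and HIST1H2BC, which had 174 counts in all, at -1.0 ± 0.57. HIST2H2BE was at -1.26 ± 0.21 and HIST2H2AC at 0.95 ± 0.59. HIST1H2AK was at -2.54 ± 0.75 and HIST1H2BN at -0.38 ± 0.47, and HIST1H2AM was at -2.55 ± 0.68 and HIST1H2BO at -0.67 ± 0.71. Of these 8 genes, HIST1H2AC, HIST2H2BE and HIST1H2AM were called. With siTAZ #2, HIST1H2AG was at -3.06 ± 0.63 and called, and HIST1H2BJ was at -0.24 ± 0.45. HIST1H2AK and HIST1H2BN lay close together with siTAZ #2, at -1.47 ± 0.70 and -1.63 ± 0.51, neither called. Also with siTAZ #2, HIST1H2AC was at -0.36 ± 0.26 and HIST1H2BC at -0.50 ± 0.56. HIST1H2AM was at -1.86 ± 0.66 and HIST1H2BO at -1.10 ± 0.75, and HIST2H2BE at 0.30 ± 0.20 and HIST2H2AC at 1.04 ± 0.59. With siTAZ #1, HIST1H2AG was at -1.01 ± 0.55 and HIST1H2BJ at -0.23 ± 0.45. No gene was called at these further values. The differences between partners were not tested.

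In RefSeq promoters of GRCh38.p14, which span 250 bases before to 50 after a start and were matched for 65 members, the 3 motifs were searched on both strands. CCAAT was present in 84.6% of members and in 39.7% of the 27305 genes with an entry. TATAAA was present in 67.7% against 14% of all genes, and the octamer ATTTGCAT in 40% against 2.19%. The octamer lay in 68.8% of H2A and 77.8% of H2B promoters, in 8.33% of H3 promoters and in 0 of the H1 and H4 promoters. The H3 share is 1 gene, HIST1H3D, whose match is in an entry at the same position as the HIST1H2AD promoter. The other HIST1H3D entry has no octamer. CCAAT lay in every H1, H2A, H2B and H3 promoter and in 23.1% of the H4 promoters. These are letter matches and not measured binding sites.

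The genes around histone supply were read from lists, to set beside the members. Of 20 genes for S phase entry and DNA replication, 1 was called lower and 2 higher with siTAZ #1, while 13 were called lower and 0 higher with siTAZ #2, and 14 of 20 were higher with siTAZ #1 than with siTAZ #2. Of all genes, 9.78% were called lower and 10.8% higher with siTAZ #1, 14.4% lower and 14.1% higher with siTAZ #2, and 15.2% higher with siTAZ #1 than with siTAZ #2. The 65% of this list called lower with siTAZ #2 was thus above the background, and the 5% called lower with siTAZ #1 was not. CDK2, the kinase that drives entry into S phase, was at 98.5 and 95.0 CPM in siNTC, 93.6 and 97.8 CPM with siTAZ #1 and 37.0 and 42.4 CPM with siTAZ #2, a log2 fold change of -1.28 ± 0.10 (edgeR, FDR 0.0011) with siTAZ #2. MCM3, a subunit of the replicative helicase, CDC6, which loads it, and RRM2, a subunit of ribonucleotide reductase, had log2 fold changes of -1.12 ± 0.10, -0.93 ± 0.12 and -0.67 ± 0.08 with siTAZ #2. With siTAZ #1 these 3 genes were at 0.001 ± 0.10, 0.36 ± 0.12 and 0.27 ± 0.08, none of them called.

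**Figure D4:**
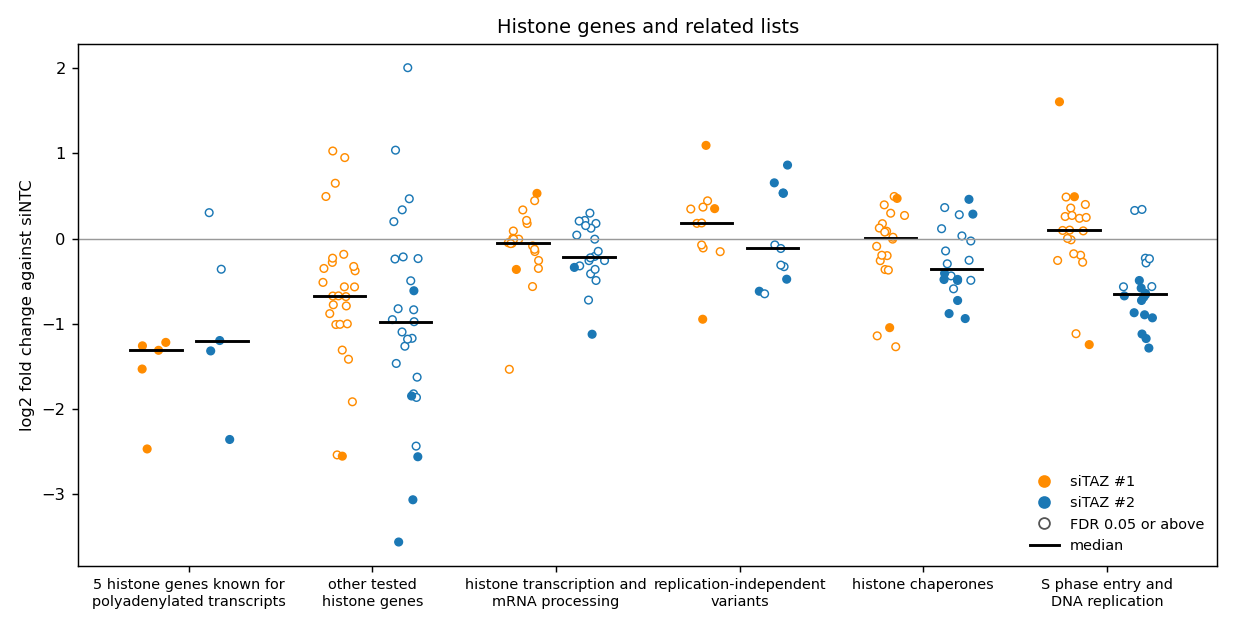
Log2 fold change against siNTC (vertical axis) of the 5 histone genes known for polyadenylated transcripts, the other 27 tested histone genes and the related gene lists, with siTAZ #1 in orange and siTAZ #2 in blue. Filled points passed FDR 0.05 and black bars are medians, which lie at 0.10 with siTAZ #1 and -0.65 with siTAZ #2 for the S phase list, and at -0.67 and -0.98 for the other histone genes.

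Of 20 genes for histone gene transcription and mRNA processing, 1 was called lower and 1 higher with siTAZ #1, and 2 lower and 0 higher with siTAZ #2. These shares, 0% to 10%, were all below those of all genes. NPAT, the coactivator of histone gene transcription, had log2 fold changes of 0.53 ± 0.14 (edgeR, FDR 0.045) and -0.26 ± 0.14 (FDR 0.21) with siTAZ #1 and siTAZ #2. SLBP, which binds the stem-loop, was at 0.18 ± 0.09 (FDR 0.24) and -0.34 ± 0.09 (FDR 0.044). LSM11, a subunit of the U7 particle that directs cleavage of histone mRNA ends, was at -0.56 ± 0.25 (FDR 0.17) and -1.12 ± 0.25 (FDR 0.024). UPF1, a helicase needed for histone mRNA decay, was at -0.36 ± 0.08 (FDR 0.024) and -0.23 ± 0.08 (FDR 0.073).

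Of 20 histone chaperones and assembly factors, 1 was called lower and 1 higher with siTAZ #1, and 6 lower and 2 higher with siTAZ #2. The 30% called lower with siTAZ #2 was above the share of all genes, and the other 3 shares, 5% to 10%, were below theirs. SUPT16H, a subunit of the FACT chaperone, had log2 fold changes of -0.26 ± 0.10 (edgeR, FDR 0.11) and -0.94 ± 0.10 (FDR 0.0020). ASF1A, an H3-H4 chaperone, was at -1.05 ± 0.21 (FDR 0.021) and 0.36 ± 0.21 (FDR 0.24). RBBP4 and UBN1 were at 0.015 ± 0.08 and 0.12 ± 0.10 with siTAZ #1, and were called lower with siTAZ #2 at -0.48 ± 0.08 and -0.48 ± 0.10 (FDR 0.0080 and 0.016).

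Of 12 genes listed as replication-independent histone variants, which lie outside the histone clusters, 11 were tested. H3F3A was listed at 0 in every library, which does not show that the gene was silent. Whether reads of H3F3A and H3F3C could be told apart was not tested, so the H3F3C values below may not be of that gene alone. With siTAZ #1, 1 was called lower and 2 higher, and with siTAZ #2, 2 lower and 4 higher. The shares lower were 9.09% and 18.2% and the shares higher 18.2% and 36.4%, over only 11 genes. H2AFY, which encodes macroH2A1, was at 150 and 160 CPM in siNTC, 81.4 and 79.5 CPM with siTAZ #1, and 263 and 301 CPM with siTAZ #2. Its 3 groups did not overlap, and its log2 fold changes were of opposite sign, -0.95 ± 0.10 (edgeR, FDR 0.0029) and 0.86 ± 0.10 (FDR 0.0025). CENPA, the centromeric H3 variant, was at 1.09 ± 0.26 (FDR 0.037) and -0.65 ± 0.26 (FDR 0.12). H1F0 was at 0.35 ± 0.15 (FDR 0.17) and -0.62 ± 0.15 (FDR 0.032), and H3F3C at -0.08 ± 0.09 (FDR 0.60) and 0.53 ± 0.09 (FDR 0.0100). The lists hold CSTF2, RBBP7, ATRX and POLA1, X-linked genes whose values with siTAZ #1 rest on replicate 1, because replicate 2 had nearly no counts there.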

How the data were processed

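The authors aligned Ion Proton reads to hg19 with TMAP, counted them per gene with HTSeq 0.6.1 and deposited raw read counts, without normalization. The strand setting, counting mode and library selection are not given in the sources used here. Of 23368 entries, 13 that carried a date in place of a symbol were left out. After filterByExpr and TMM, all 6 libraries entered 1 quasi-likelihood model in edgeR 4.0.16 (R 4.3.3), and p-values were adjusted by Benjamini-Hochberg over the 14053 genes kept (threshold FDR 0.05). Each SE was the size of the log2 fold change divided by the root of its F statistic. Tests were checked on simulated data. The members and gene lists were chosen with earlier results of these data known. Genes named are the members called in any comparison, the 5 with the highest level, and the 5 known for polyadenylated transcripts. Up to 4 genes per list are named, by lowest FDR. Alternatives were DESeq2 1.42.0, RLE factors, 2 other filters, a 4-library fit, the replicate block, leaving out each library, leaving out the stretch nearly without counts, a GC offset and FDR 0.1. Positions come from GENCODE v44 lifted to GRCh37, whose chromosomes match hg19, and symbols were matched directly (19311) or by a synonym (2029). HIST1H2BF, HIST1H2BG and HIST1H4F had no position.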

Additional observations from a re-analysis of the deposited data

Results flagged for a closer look

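In 4 histone genes the siRNAs differed in edgeR's direct comparison of siTAZ #1 with siTAZ #2. The log2 difference, siTAZ #1 minus siTAZ #2, was -2.11 for HIST1H2AC, -1.56 for HIST2H2BE, 1.05 for HIST1H2BK and 2.89 for HIST1H3G. HIST1H2AC and HIST2H2BE lay below siNTC in both siTAZ #1 libraries. HIST1H2BK was below siNTC with both siRNAs, and lower with siTAZ #2. HIST1H3G rests on 3 and 1 counts in the siTAZ #2 libraries. What sets the siRNAs apart was not tested.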

How the results depend on the processing

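Counts of histone genes called lower with siTAZ #2 moved from 8 to 5 with no filter on low counts, to 4 when a mean of 50 counts was required (7 members tested) and to 5 with the replicate block. In the fit of the siNTC and siTAZ #2 libraries alone, the count rose to 10 of 28 tested, with HIST1H2AM and HIST1H2BN added. Members called higher with siTAZ #2 moved from 0 to 1, HIST3H2A, in the fit of the 4 libraries and when the stretch nearly without counts in siTAZ #1 replicate 2 (RANGAP1 through chromosome Y) was left out. Members called higher with siTAZ #1 than with siTAZ #2 moved from 2 to 1 when that mean of 50 counts was required and in the fit of the 4 libraries. Leaving out 1 library at a time gave 2 to 5 members lower with siTAZ #1, 2 to 8 lower and 0 to 1 higher with siTAZ #2, and, between the siRNAs, 2 to 3 lower and 1 to 4 higher. The cause of these moves was not tested. The fold change between the siRNAs changed sign for HIST1H2AM (0.090 without siTAZ #2 replicate 2, with a range of -1.29 to 0.090 over the libraries left out) and for HIST1H2BD (-0.012 without siTAZ #1 replicate 2, with a range of -0.012 to 0.21), neither called in any fit. RLE factors, the GC offset and DESeq2 kept each count within 1.5 times.

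The replicate block is given because the labels number replicates 1 and 2 in each group. Same-numbered libraries did not deviate together (correlations of replicate 1 minus replicate 2 over genes of -0.00069, 0.011 and -0.077). These values do not show whether same-numbered libraries shared a culture or day. The block gave 5 members lower with siTAZ #1 and 5 with siTAZ #2, and left the 4 calls between the siRNAs as they were. The common dispersion was 0.081 over all genes and 0.019 without that stretch, so small changes are harder to call than the histone libraries alone would make them. Of the 25 tested members with a mean under 50 counts per library, 18 had a library with under 10 counts.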
